A study of Mus musculus with 18 samples.

Results

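The genes described here are 9 genes by which a mouse cell detects foreign or its own double-stranded RNA and answers with interferon: the sensors Ifih1, Ddx58 and Tlr3, the adaptor Mavs, the transcription factors Irf3 and Irf1, the receptor subunit Ifnar1 and the effectors Eif2ak2 and Isg15. They were chosen by name, as a pathway, from the 51467 genes of the counts table, and all 9 had a row there. Counts come from polysome gradients of embryonic stem cells (ESCs), 3 of wild type (WT, the V6.5 line) and 3 of a Dgcr8 knockout (KO) line, each gradient being collected as monosome, low polysome (2 to 4 ribosomes per message) and high polysome (4 or more) fractions. This gave 18 libraries in 6 groups of 3. Both genotypes were cultured with serum, LIF and the inhibitors PD0325901 and CHIR99021, and all cells received cycloheximide (100 ug/ml for 2 minutes), which holds ribosomes on messages. DGCR8 is needed to process primary microRNA transcripts, so KO cells lack canonical microRNAs. Each genotype was represented by 1 line, so the deletion and other differences between the lines cannot be told apart. The labels number the gradients without saying whether they came from separate cultures, so p-values measure the spread between these gradients.

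In a differentiated cell, the helicases RIG-I (Ddx58) and MDA5 (Ifih1) bind double-stranded RNA in the cytoplasm and signal through MAVS on mitochondria, while TLR3 senses it in endosomes. Both routes activate IRF3, which switches on type I interferon genes, and secreted interferon acts through the IFNAR1 receptor subunit to induce effectors such as PKR (Eif2ak2), which blocks translation, and the ubiquitin-like protein ISG15. Pluripotent stem cells are known for a weak interferon response, and microRNAs, among them miR-673-5p, have been reported to restrain Mavs in stem cells. The question the genotypes address for this pathway is whether its messages, and their loading with ribosomes, differ once microRNAs are missing.

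Because the study concerns microRNA loss, the mature forms of the ESC-enriched ESCC family (the miR-290 and miR-302 clusters) and of miR-673-5p are shown with their seed, bases 2 to 8, in capitals. They were taken from RefSeq (GRCm38.p6). The miR-290 cluster lies on chromosome 7 (miR-291a-3p at chr7:3218968-3218989) and miR-673-5p on chromosome 12 (chr12:109572004-109572025), both on the plus strand.
miR-291a-3p: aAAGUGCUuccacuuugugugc
miR-294-3p: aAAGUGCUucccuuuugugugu
miR-295-3p: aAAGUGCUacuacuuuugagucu
miR-302b-3p: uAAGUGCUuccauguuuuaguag
miR-302d-3p: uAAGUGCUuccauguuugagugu
miR-673-5p: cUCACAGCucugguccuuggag
The first 5 share the seed AAGUGCU, whose match in a message reads AGCACTT, and the match of miR-673-5p reads GCTGTGA. Among the 3′ UTRs of the 9 genes, taken as 1 annotated transcript each, AGCACTT occurred only in Eif2ak2, at position 2369 of 2575 nt, and GCTGTGA only in Irf1, at position 59 of 877 nt. Neither occurred in the Mavs 3′ UTR of that transcript, which says only that these letters are not in this window. The 2 matches are shown with the sequence around them, the match in capitals (Eif2ak2 at chr17:78852764-78852770, minus strand, and Irf1 at chr11:53776505-53776511, plus strand).
Eif2ak2 3′ UTR: gctgcttctcaaAGCACTTtggacctttgc
Irf1 3′ UTR: ggcatcatggtgGCTGTGAtacaaaaaaag
Of the 11680 genes tested that had a 3′ UTR, 16.2% held AGCACTT and 16.3% held GCTGTGA. The single match of each among the 9 genes is a description of letters, not evidence of a site.

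Promoters were examined because interferon-responsive genes share short elements there. A search of 300 bases around each start (250 before to 50 after, RefSeq GRCm38.p6) used the interferon-stimulated response element, as 2 copies of GAAA with any 2 bases between them, on both strands, and the gamma-activated sequence TTCNNNGAA, in which N is any base and which reads the same on both. The motifs do not contain each other. The 9 genes had 10 promoters in the table. The GAAA pair was found for 4 of the 9 genes, namely Ifih1, Ddx58, Isg15 and Eif2ak2. Counted by gene, it was found for 1079 of all 27025 genes there, and counted by promoter, in 3.44% of all 32851 promoters. TTCNNNGAA was found for 3 of 9, namely Irf1, Ifnar1 and Eif2ak2, against 2582 of 27025 genes and 8.3% of all promoters. Mavs, Irf3 and Tlr3 held neither. The stretches are given in the direction of the gene with matches in capitals. In Isg15 the capitals hold 3 overlapping matches beginning 78 bases upstream of the start, and in Ddx58 the match lies on the opposite strand, beginning 2 bases downstream.
Isg15 (chr4:156200845-156200926, minus strand): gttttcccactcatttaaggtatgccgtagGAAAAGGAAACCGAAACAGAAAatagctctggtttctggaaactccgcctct
Ddx58 (chr4:40239784-40239853, minus strand): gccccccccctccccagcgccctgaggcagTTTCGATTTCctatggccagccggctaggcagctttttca
Ifih1 (chr2:62646206-62646253, minus strand): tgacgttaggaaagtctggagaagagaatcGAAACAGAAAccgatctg
Eif2ak2 (chr17:78882523-78882584, minus strand): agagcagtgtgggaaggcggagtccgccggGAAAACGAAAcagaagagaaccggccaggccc
Irf1 (chr11:53769894-53769962, plus strand): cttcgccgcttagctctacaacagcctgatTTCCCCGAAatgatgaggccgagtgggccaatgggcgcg
Ifnar1 (chr16:91485180-91485248, plus strand): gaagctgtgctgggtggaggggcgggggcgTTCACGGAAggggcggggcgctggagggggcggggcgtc
The TTCNNNGAA match began 90 bases upstream of the Irf1 start and 5 bases upstream of the Ifnar1 start. No binding data accompany these counts, so the matches are printed as annotation.

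Library totals ranged from 1151649 to 4984833 counts. CPM is a count scaled to the library total over the genes tested times its TMM factor, a scaling factor of each library. For the filter alone it was scaled to the total of all genes, without that factor. The floor of detection was taken as 3 counts, which correspond to 0.689 to 2.65 CPM depending on the library. These floors cover counting error only. The intervals given below for ratios come from the limma-voom fit, so they also include the spread between gradients. Reads of Dgcr8 itself were lower in KO cells in monosomes (log2 change -0.56, adjusted p = 0.0185), low polysomes (-0.45, adjusted p = 0.0223) and high polysomes (-1.01, adjusted p = 0.000276), but 38 to 183 reads remained in each KO library. The monosome call was lost without any 1 of the WT gradients (adjusted p = 0.0602, 0.0507 and 0.0707 without replicates 1, 2 and 3), and the low polysome call without WT replicate 2 or 3 or KO replicate 1 or 3 (0.111, 0.0888, 0.105 and 0.069). Both calls were also lost with no filter (adjusted p = 0.0931 and 0.0748), and the monosome call with total counts (0.0633). The reads come from 3′ ends, which a deletion elsewhere in the gene can leave in place. All 8 markers of ESCs, such as Nanog and Sox2, were detected in both genotypes, with a summed level of 2760 to 5190 CPM in WT and 2850 to 3840 CPM in KO libraries. Tests covered the 12851 genes that reached 3 CPM in no fewer than 3 libraries, among them 6 of the 9. Ifih1, Tlr3 and Isg15 did not reach that level. The 6 tested genes all reached it in WT libraries alone.

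Of the 3 sensors among the 9 genes, Ddx58 alone reached the filter. Ddx58 (chromosome 4, 40204849 to 40239828, minus strand), which encodes RIG-I, held 7, 10 and 4 reads in the WT monosome libraries, 22, 19 and 28 in low polysomes and 30, 24 and 38 in high polysomes. In KO cells it held 72, 103 and 115 reads in monosomes, 124, 103 and 114 in low polysomes and 90, 88 and 112 in high polysomes. Each KO library thus exceeded each WT library of its fraction. The share of all genes tested that separate in this way was not counted, so such separation, here and below, has no background. Its monosome level was 4.89 ± 1.47 CPM in WT against 41.7 ± 2.91 CPM in KO cells (SD, n = 3), and its low polysome level 7.16 ± 1.65 against 33.7 ± 4.12 CPM. In high polysomes it was 10.8 ± 1.89 CPM in WT and 27.6 ± 2.02 CPM in KO cells (n = 3). The order of the fractions was therefore opposite, with the lowest mean in WT monosomes and the highest in KO monosomes. Ddx58 rose 8.0-fold in monosomes (95% interval 4.78 to 13.4, adjusted p = 1.53e-08), 4.73-fold in low polysomes (3.42 to 6.53, adjusted p = 8.13e-11) and 2.53-fold in high polysomes (1.88 to 3.40, adjusted p = 9.20e-07). In bulk samples, fewer expressing cells and less RNA per cell cannot be told apart.

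Tlr3 (chromosome 8, 45395665 to 45410619) and Ifih1 (chromosome 2, 62595798 to 62646211), the endosomal sensor and the MDA5 helicase, were near the floor. Tlr3 had 0 or 1 read in each of the 9 WT libraries. In KO cells it had 6, 5 and 1 reads in monosomes, 6, 0 and 2 in low polysomes and 6, 4 and 5 in high polysomes. The KO libraries lay above the WT ones in monosomes and high polysomes and overlapped with them in low polysomes. Against the floor, Tlr3 was at least 1.36-fold higher in KO high polysomes, and the other fractions allow no bound. Ifih1 had no read in any WT library, which allows up to 3 counts in each, or in KO monosomes. It had 0, 2 and 0 reads in KO low polysomes and 1, 1 and 4 in KO high polysomes. The KO high polysome mean, 0.52 CPM, was under the WT floor, so no fold is given. In a fit of all 25635 genes with any read, the adjusted p for KO against WT was 0.0116, 0.485 and 0.0237 for Tlr3 in the order of the gradient, and for Ifih1 it was 0.227, 0.259 and 0.0125. That fit gave Ifih1 a log2 change of -0.655 in monosomes, where no library of either genotype held a read of it. At so few reads its adjusted p-values are not taken as calls for either gene. Ddx58 was thus the sensor of the 3 with most reads, 1103 over all libraries against 39 for Tlr3 and 8 for Ifih1.

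**Figure D1:**
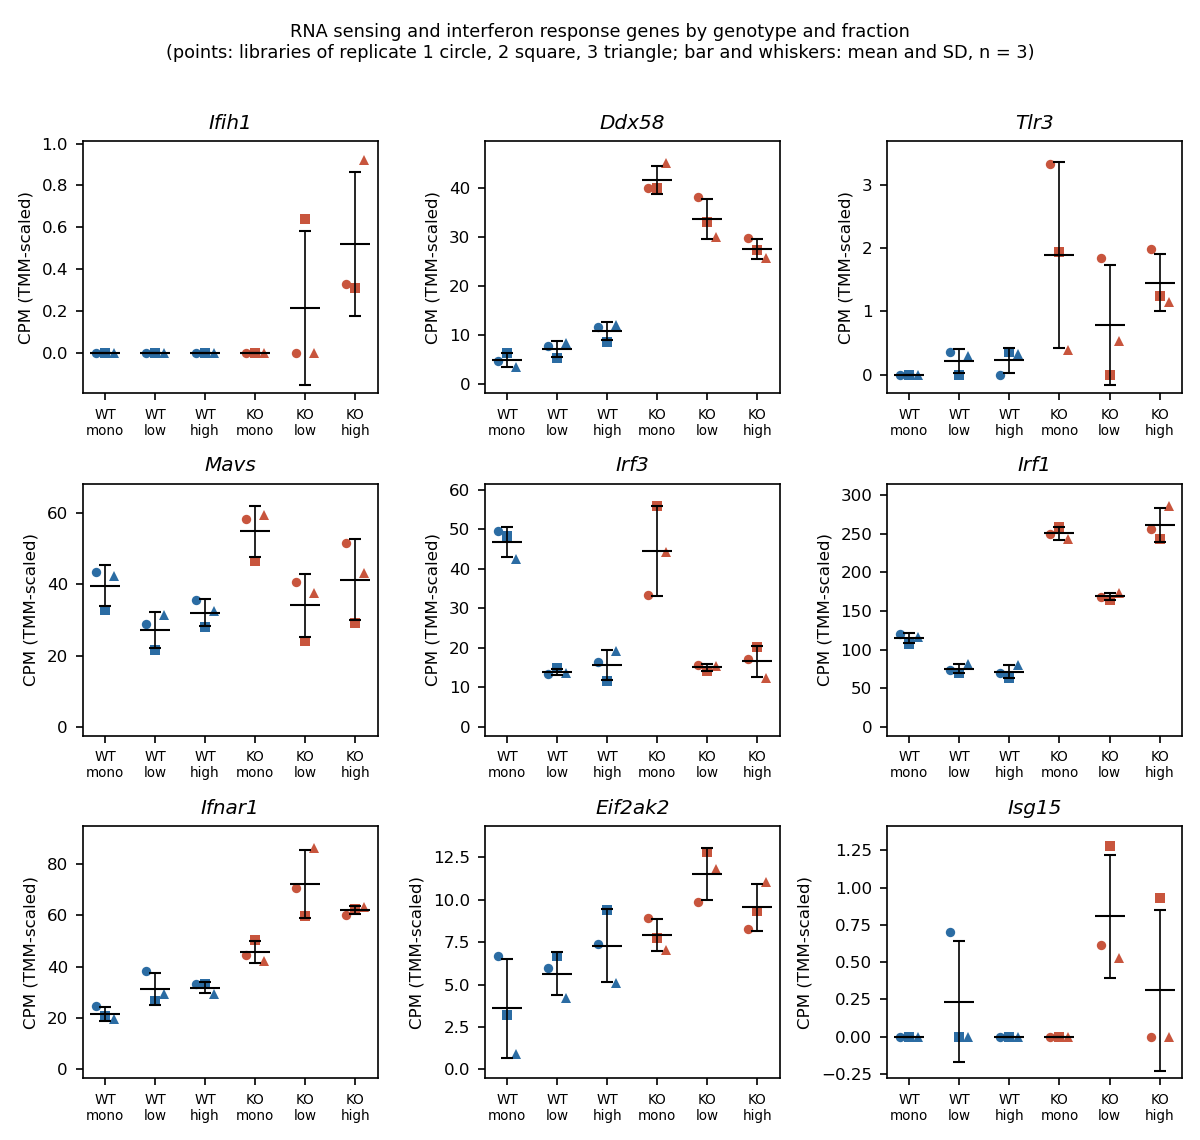
Level of each of the 9 genes in CPM (vertical axis, a separate scale for each gene) in the 18 libraries, grouped by genotype and fraction, WT in blue and KO in red. Points are libraries and bars with whiskers the mean and SD (n = 3). Ddx58, Irf1 and Ifnar1 lay higher in every KO library than in any WT library of the same fraction, whereas the Irf3 groups overlapped in each fraction and Ifih1, Tlr3 and Isg15 reached at most 3.34 CPM. The share of all genes tested that separate in this way was not counted.

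Mavs (chromosome 2, 131234067 to 131248025, plus strand), the mitochondrial adaptor on which both helicases converge, was expressed in both genotypes and was only slightly higher on average in KO cells. In WT cells the libraries gave 43.5, 32.9 and 42.4 CPM in monosomes, 28.9, 21.5 and 31.3 CPM in low polysomes and 35.5, 28.1 and 32.5 CPM in high polysomes. KO libraries gave 58.4, 46.6 and 59.5 CPM in monosomes, 40.6, 24.0 and 37.6 CPM in low polysomes and 51.6, 29.2 and 43.2 CPM in high polysomes. The KO libraries lay above the WT ones in monosomes and overlapped with them in both polysome fractions. KO replicate 2 was the lowest of its group in each fraction, as was WT replicate 2. In no fraction did the difference pass the test, with a ratio of KO to WT of 1.38 in monosomes (95% interval 1.02 to 1.88, adjusted p = 0.0897), 1.25 in low polysomes (0.944 to 1.65, adjusted p = 0.18) and 1.26 in high polysomes (0.963 to 1.66, adjusted p = 0.131). Each interval is for 1 gene, without adjustment. The outcome depends on the setting: without KO replicate 2 the log2 change was 0.59, 0.54 and 0.55 in the order of the gradient, with adjusted p of 0.0193, 0.011 and 0.00613. In monosomes Mavs also passed when only the libraries compared were fitted (adjusted p = 0.0337), with total counts (0.0349) and with the gradient number as a block (0.02), and in high polysomes with that block (0.0393). The 3 tested genes whose log2 CPM followed that of Mavs most closely over the 18 libraries were Sesn1 (Pearson's r 0.834), Rbm43 (0.833) and Casc3 (0.811). Among the other 5 tested members, r with Mavs ranged from -0.03 for Eif2ak2 to 0.647 for Irf1. These libraries share gradients and fractions, so r is a description only.

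The 2 transcription factors behaved differently. Irf3 (chromosome 7, 44997648 to 45002848, plus strand), the factor that MAVS signalling activates, gave 49.6, 48.4 and 42.4 CPM in WT and in KO monosomes 33.4, 55.9 and 44.3 CPM. It was lower in low polysomes, with 13.4, 14.8 and 13.6 CPM in WT and 15.7, 14.1 and 15.5 CPM in KO cells. In high polysomes it gave 16.4, 11.5 and 19.1 CPM in WT and 17.2, 20.2 and 12.4 CPM in KO cells. The genotypes overlapped in each fraction, and both monosome groups stood above all polysome libraries. No difference between genotypes passed the test, with a ratio of KO to WT between 0.720 and 1.23 in monosomes, 0.783 and 1.5 in low polysomes and 0.746 and 1.42 in high polysomes (95% intervals, adjusted p of 0.762, 0.707 and 0.894).

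Irf1 (chromosome 11, 53770014 to 53778374, plus strand), a factor itself induced by interferon and active on antigen presentation and antiviral genes, had the most reads of the 9, 8073 over all libraries, on a scale of 3′ end counts that does not grow with transcript length. It gave 121, 108 and 116 CPM in WT monosomes, 73.7, 70.0 and 81.3 CPM in low polysomes and 69.8, 63.4 and 80.6 CPM in high polysomes. KO libraries gave 249, 259 and 243 CPM in monosomes, 168, 164 and 174 CPM in low polysomes and 256, 243 and 286 CPM in high polysomes. The lowest KO library stood above the highest WT library of any fraction. Irf1 rose 2.18-fold in monosomes (95% interval 1.83 to 2.60, adjusted p = 2.20e-09), 2.25-fold in low polysomes (1.90 to 2.67, adjusted p = 7.76e-11) and 3.67-fold in high polysomes (3.10 to 4.35, adjusted p = 1.60e-16). Within each genotype the fractions were ordered differently, with WT low and high polysomes overlapping below WT monosomes, and KO monosomes and high polysomes overlapping above KO low polysomes.

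Ifnar1 (chromosome 16, 91485238 to 91507441, plus strand) encodes a subunit of the type I interferon receptor. Its level was 24.8, 20.7 and 19.5 CPM in WT monosomes, 38.4, 26.5 and 29.2 CPM in low polysomes and 33.2, 33.2 and 29.3 CPM in high polysomes. In KO cells it was 44.5, 50.5 and 42.3 CPM, then 70.4, 59.6 and 85.9 CPM, and 60.2, 62.4 and 63.2 CPM in the same order of fractions. The genotypes did not overlap in any fraction. The increase was of similar size along the gradient, 2.09-fold in monosomes (95% interval 1.52 to 2.85, adjusted p = 0.000215), 2.32-fold in low polysomes (1.87 to 2.88, adjusted p = 1.09e-08) and 1.95-fold in high polysomes (1.56 to 2.43, adjusted p = 1.65e-06).

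Of the effectors, Eif2ak2 (chromosome 17, 78852564 to 78882573, minus strand), the kinase PKR, had few reads. WT libraries held 10, 5 and 1 reads in monosomes, 17, 24 and 14 in low polysomes and 19, 26 and 16 in high polysomes. KO libraries held 16, 20 and 18 reads, then 32, 40 and 45, and 25, 30 and 48 in the same order. In CPM the KO libraries lay above the WT ones in monosomes and low polysomes and overlapped with them in high polysomes. Eif2ak2 rose 2.03-fold in low polysomes (95% interval 1.35 to 3.07, adjusted p = 0.00334). The ratio was 2.34 in monosomes (1.16 to 4.75, adjusted p = 0.0513) and 1.37 in high polysomes (0.909 to 2.05, adjusted p = 0.181), neither of which passed. Without WT replicate 1, the monosome library with 10 reads, the monosome log2 change was 1.80 with an adjusted p of 0.0408, and without WT replicate 3, the library with 1 read, it was 0.68 with an adjusted p of 0.284.

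Isg15 (chromosome 4, 156199424 to 156200818), the ubiquitin-like modifier that an interferon response induces strongly, was at or under the floor nearly everywhere. In WT cells only the low polysome library of replicate 1 had reads, 2 of them. In KO cells there was none in monosomes, 2, 4 and 2 in low polysomes and 0, 3 and 0 in high polysomes. The genotypes overlapped in each fraction, and in no fraction did the adjusted p pass in the fit of all genes with any read (0.316, 0.111 and 0.455 in the order of the gradient). At this depth no difference was detectable for Isg15.

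Over the 6 tested genes, 3 were higher in KO monosomes (Ddx58, Irf1 and Ifnar1) and 0 lower, where 17.5% of all genes tested were higher and 19.9% lower. In low polysomes 4 were higher, the same genes and Eif2ak2, and 0 lower, against 26.1% and 26.2% of all genes. In high polysomes Ddx58, Irf1 and Ifnar1 were again higher and 0 lower, against 29.1% and 31.6%. The median log2 change was 1.09, 1.1 and 0.71 in the order of the gradient, where the median of all genes was -0.05, 0.00418 and -0.08. With 6 genes chosen by name these counts are a description. Among all genes tested, the Ddx58 change lay at percentile 99.2, 97.7 and 90 in the same order, and that of Irf1 at 91.4, 90.5 and 95.2. Mavs lay at percentile 76.4, 66.7 and 65.2 and Irf3 at 47.9, 56 and 54.5.

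**Figure D2:**
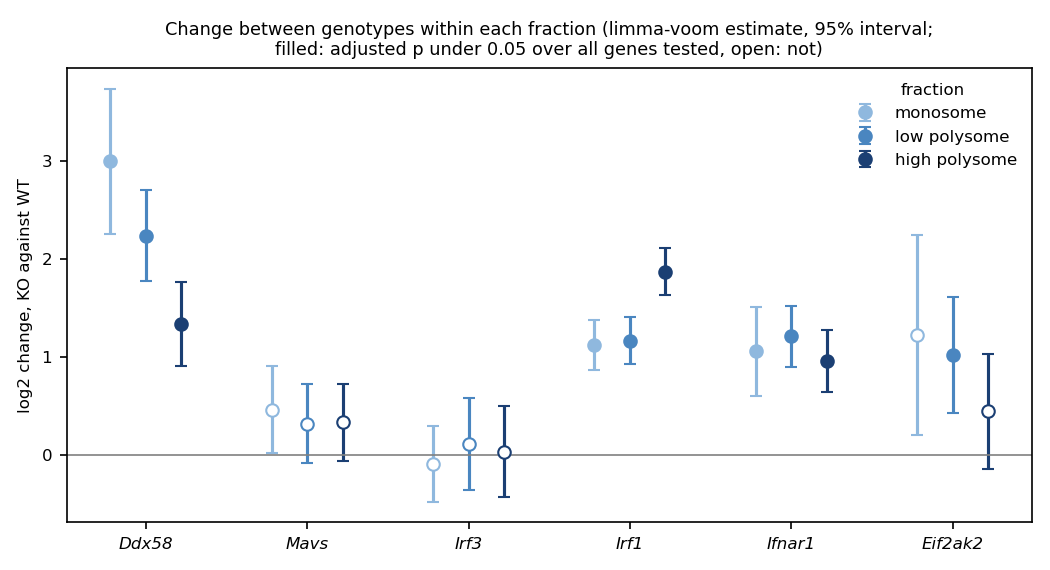
Change between genotypes (vertical axis, log2 of KO against WT, with the 95% interval of the limma-voom fit) of the 6 tested genes in the 3 fractions, monosomes to high polysomes in lighter to darker blue. Filled points passed at an adjusted p under 0.05 over all genes tested. The Ddx58 change became smaller from monosomes to high polysomes, from 3.00 to 1.34, that of Irf1 was largest in high polysomes at 1.88, and the Mavs and Irf3 points are all open.

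The translation level, the ratio of high polysomes to monosomes, was then compared within and between genotypes. Each library is scaled by its own total and TMM factor, so the ratio places a gene relative to other messages. It does not say which fraction held more of its RNA. Per gradient, the log2 ratio of Ddx58 was 1.20, 0.39 and 1.59 in WT and -0.42, -0.54 and -0.79 in KO cells. The scaled level of Ddx58 was higher in high polysomes in all 3 WT gradients and higher in monosomes in all 3 KO gradients. In the fit, the WT log2 level of 1.06 (SE 0.39, adjusted p = 0.0216) and the KO level of -0.61 (SE 0.16, adjusted p = 0.00116) differed by -1.66 (SE 0.42), a change that passed (adjusted p = 0.00259). This places Ddx58 at percentile 3.4 of all genes in the change in translation level, beside its increase in each fraction. The WT level alone did not pass without WT replicate 1 (log2 level 0.97, adjusted p = 0.117) or WT replicate 3 (0.80, adjusted p = 0.153), and the WT monosome libraries held 4 to 10 reads of Ddx58. The change passed in each of the 14 fits made.

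Irf1 changed in the opposite direction. Its log2 ratio was -0.78, -0.76 and -0.52 in the WT gradients and 0.04, -0.09 and 0.24 in the KO gradients, without overlap. The WT level was -0.69 (SE 0.13, adjusted p = 3.76e-05) and the KO level 0.06 (SE 0.11, adjusted p = 0.631). The change of 0.75 (SE 0.17) passed with an adjusted p of 0.00102. Scaled by total counts instead of TMM factors it was 0.42 (adjusted p = 0.058), a scaling under which the median of all genes moved by -0.33 for this comparison, by -0.22 for KO against WT in high polysomes, by 0.11 for it in monosomes and by -0.25 for the KO translation level.

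For the other 4 tested genes the change in translation level did not pass. Mavs had log2 ratios of -0.29, -0.22 and -0.38 in WT and -0.18, -0.66 and -0.46 in KO gradients, which overlapped, and a fitted change of -0.13 (the ratio of ratios having a 95% interval of 0.607 to 1.37, adjusted p = 0.784). Its level was -0.30 in WT (adjusted p = 0.272) and -0.43 in KO cells (adjusted p = 0.0362). The second call was lost without KO replicate 2 (-0.34, adjusted p = 0.103), KO replicate 3 (-0.42, adjusted p = 0.13) or WT replicate 2 (-0.40, adjusted p = 0.0578). It was also lost with no filter (-0.38, adjusted p = 0.131), in edgeR (adjusted p = 0.0517) and in DESeq2 (0.0892). Irf3 was the member most on the monosome side, at -1.60 in WT (adjusted p = 1.03e-07) and -1.48 in KO cells (adjusted p = 2.07e-08), with a change of 0.12 (adjusted p = 0.801). These levels lie at percentile 12.4 and 18.9 of all genes. Ifnar1 was on the high polysome side in both genotypes, at 0.53 (adjusted p = 0.0443) and 0.44 (adjusted p = 0.0119), with a change of -0.10 (adjusted p = 0.831). Its WT call was lost without any 1 of the WT gradients (adjusted p = 0.08, 0.127 and 0.107 without replicates 1, 2 and 3). Its KO call was lost without KO replicate 3 (0.36, adjusted p = 0.0965) and with total counts (0.19, adjusted p = 0.276). Both calls were also lost with a stricter filter (adjusted p = 0.0839 and 0.0524). Eif2ak2 had levels of 1.07 (adjusted p = 0.0677) and 0.29 (adjusted p = 0.394) and a change of -0.78 (adjusted p = 0.344), with 1 to 10 reads in the WT monosome libraries.

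Of the 6 tested genes, 4 thus passed for the WT translation level, 2 in each direction, where 54% of all genes did, 4 for the KO level, where 67.7% did, and 2 for its change, where 28.2% did. The comparisons within genotypes and the change share libraries. The members also differ in length. Their coding sequences run from 483 nt (Isg15) to 3075 nt (Ifih1), and those of the 2 genes that changed in translation level are 2778 nt (Ddx58, percentile 84.2 of protein-coding genes tested) and 987 nt (Irf1, percentile 31.8), with 1509 nt for Mavs.

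**Figure D3:**
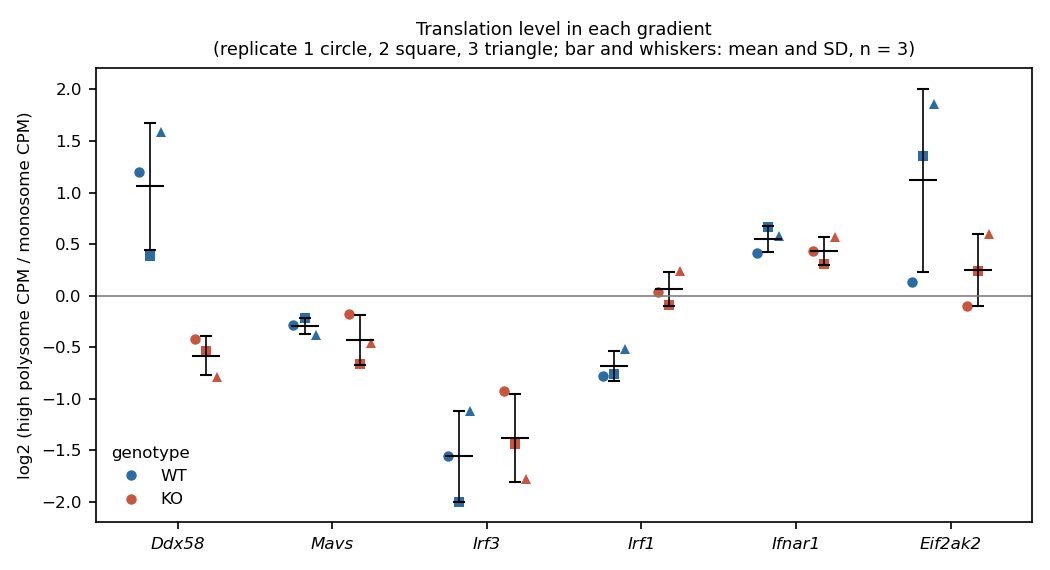
Translation level (vertical axis, log2 of high polysome over monosome CPM) of the 6 tested genes in each of the 3 WT (blue) and 3 KO (red) gradients. Bars with whiskers are the mean and SD (n = 3). The genotypes separate for Ddx58, from 0.39 or more in WT to -0.42 or less in KO, and in the opposite direction for Irf1, and overlap for Mavs, Irf3, Ifnar1 and Eif2ak2. How many of all genes tested separate in this way was not counted.

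Around these 9 genes, 98 others of the same pathway were examined in 5 lists by role, of which 71 were tested. A gene that reaches the filter only where it is high has to differ, so counts are also given for the 62 that reached it in WT libraries alone. Over all lists, 30 genes were higher and 6 lower in KO monosomes, 41 and 8 in low polysomes and 39 and 7 in high polysomes. Among the 62 the counts were 22 and 6, 32 and 8, and 30 and 7, where 17.5%, 26.1% and 29.1% of all genes tested were higher and 19.9%, 26.2% and 31.6% lower. Of the 71 genes, 24 were higher and 4 lower in all 3 fractions. The same count was not made for all genes tested or for the 62, so it has no background. The median log2 change of the 62 was 0.30, 0.54 and 0.39, against -0.05, 0.00418 and -0.08 over all genes tested.

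Interferon-stimulated effectors, the longest list, gave more higher genes than any other list. Of 22 tested (15 of the 37 listed were under the filter), 18 were higher and 0 lower in monosomes, 20 and 1 in low polysomes, and 18 and 1 in high polysomes. Background shares over all genes tested were 17.5%, 26.1% and 29.1% higher and 19.9%, 26.2% and 31.6% lower. The 14 effectors that reached the filter in WT cells gave 11, 12 and 10 higher, with medians of 1.5, 1.49 and 1.01. The lower gene, named after its values were seen, was Bst2, the tetherin that holds budding virus at the membrane. Psmb8, Rsad2, Gbp2 and Igtp, named next, did not reach the filter in WT libraries alone. That they were higher in KO cells therefore follows in part from the filter. Psmb8, a subunit of the immunoproteasome, had 0 to 2 reads in each WT library and 12 to 26, 39 to 69 and 65 to 107 reads per KO library in the order of the gradient. It was at least 3.61-fold, 16.8-fold and 21.4-fold higher. Rsad2, the antiviral enzyme viperin, was at least 1.38-fold, 7.32-fold and 11.1-fold higher. Its monosome call was lost without WT replicate 2 (adjusted p = 0.0598). The GTPase Gbp2, whose monosome call was lost without WT replicate 1 or 3 or KO replicate 2 (0.108, 0.0793 and 0.054), was at least 1.17-fold, 2.62-fold and 3.56-fold higher, and the GTPase Igtp at least 4.45-fold and 16.9-fold in monosomes and low polysomes, with a log2 change of 3.42 in high polysomes (adjusted p = 6.84e-09). Several classical markers of an interferon response were under the filter. The highest count in any library was 2 for Ifit1 and 0 for Ifit3, 1 for Mx1 and Usp18, and 2 for Cxcl10. Of the genes that belong equally to antigen presentation, Psmb9, Tap1 and B2m rose in all 3 fractions, by a log2 change of 2.19, 3.02 and 1.18 in high polysomes.

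Among the 8 further RNA and DNA sensors tested, 3 were higher and 1 lower in monosomes, 3 and 0 in low polysomes and 5 and 0 in high polysomes. The 7 that reached the filter in WT cells gave 2, 2 and 4 higher. Background shares over all genes tested were 17.5%, 26.1% and 29.1% higher and 19.9%, 26.2% and 31.6% lower in the same order. Zbp1, which binds Z-form nucleic acid and reached the filter through the KO libraries alone, had a monosome level of 2.11 ± 0.989 CPM in WT against 11.9 ± 0.457 CPM in KO cells (n = 3) and was at least 12.5-fold and 11.4-fold higher in low and high polysomes. Oas2, which makes the messenger 2′-5′ oligoadenylate when it meets double-stranded RNA, rose in all 3 fractions, by 2.66, 1.08 and 2.94 (log2), the second call being lost without WT replicate 3 (0.80, adjusted p = 0.0813). Oas1a passed in monosomes and high polysomes (1.48 and 0.83). Its monosome call was lost without any 1 of the WT gradients (adjusted p = 0.0543, 0.102 and 0.0895) or KO replicate 3 (0.0508), and its high polysome call without WT replicate 1 or 2 or KO replicate 1 (0.0623, 0.111 and 0.1). The Oas1a high polysome call was also lost with total counts (adjusted p = 0.0965) and with no filter (0.0732). Zc3hav1, the zinc finger antiviral protein, rose in low and high polysomes (0.48 and 0.75). The lower gene in monosomes was Cgas, named after its values were seen (-0.80, adjusted p = 0.0447), which was higher in high polysomes (0.82, adjusted p = 0.0487). Both Cgas calls were close to the threshold, and no result under the alternatives is given for them. Dhx58, the third RIG-I-like receptor, was under the filter with at most 17 reads.

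Of 19 adaptors, kinases and ubiquitin ligases tested, 4 were higher and 2 lower in monosomes. The counts were 6 and 4 in low polysomes and 4 and 4 in high polysomes. Medians were -0.00494, -0.00416 and -0.05. Over all genes tested, 17.5%, 26.1% and 29.1% were higher and 19.9%, 26.2% and 31.6% lower in the same order. Tmem173, the adaptor STING of the DNA sensing route, rose from 16 ± 2.58 to 69.6 ± 7.22 CPM in high polysomes (n = 3) and by 1.04, 1.74 and 2.13 (log2) along the gradient. Ticam1, the adaptor of TLR3, rose in low and high polysomes (1.01 and 1.79), and its log2 change in monosomes was 1.09 (adjusted p = 0.0568). The kinase Ripk1 rose by 1.24, 1.18 and 1.55, but its monosome call was lost without any 1 of the WT gradients (adjusted p = 0.0935, 0.0887 and 0.0514) or KO replicate 3 (0.92, adjusted p = 0.123). Tbkbp1, a partner of the kinase TBK1, fell in all 3 fractions (-1.24, -1.37 and -0.78).

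The transcription factor list gave 3 higher and 1 lower of 11 tested in monosomes. It gave 5 and 0 in low polysomes and 6 and 0 in high polysomes. Over all genes tested, 17.5%, 26.1% and 29.1% were higher and 19.9%, 26.2% and 31.6% lower in the same order. Irf2, which binds the same elements as Irf1, rose from 2.14 ± 2.21 CPM in WT to 22.4 ± 2.18 CPM in KO monosomes, while high polysomes went from 3.02 ± 0.927 to 37.7 ± 2.27 CPM (n = 3). Irf9, the DNA-binding subunit of the ISGF3 complex below the interferon receptor, rose by 1.1, 1.18 and 2.31 (log2). Irf2bp2, a corepressor that binds IRF2, was lower in monosomes (-0.44) and higher in low and high polysomes (0.68 and 1.11). The monosome call was lost without WT replicate 2 or 3 or KO replicate 1 or 3. It was also lost with total counts (adjusted p = 0.0648) and with no filter (0.0847).

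Interferons, receptors and receptor kinases gave 2 higher and 2 lower of 11 tested in monosomes. They gave 7 and 3 in low polysomes and 6 and 2 in high polysomes. Shares over all genes tested were 17.5%, 26.1% and 29.1% higher and 19.9%, 26.2% and 31.6% lower in the same order. No read of Ifnb1 or Ifna4, the type I interferon genes listed, was counted in any library. Ifnar2, the partner of Ifnar1 in the receptor, rose in all 3 fractions (1.22, 0.75 and 1.03). Ifngr2, a subunit of the interferon gamma receptor, rose by 2.08, 1.85 and 1.81, and Ifngr1, the other subunit, in low and high polysomes (both 1.53). Socs3, a feedback inhibitor of cytokine receptor signalling, fell in all 3 fractions (-0.71, -0.89 and -1.55). Its monosome call was lost in DESeq2 (adjusted p = 0.0524) and with no filter (0.0862). It was also lost without WT replicate 1 (0.0937), WT replicate 2 (0.0963) or KO replicate 3 (log2 change -0.32, adjusted p = 0.259).

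The change in translation level passed for 17 of the 71 genes, 11 higher and 6 lower in KO cells, where 28.2% of all genes tested passed. This split turned to 5 higher and 13 lower when libraries were scaled by total counts. Psmb8 is among the 17 although its WT monosome and high polysome libraries held no read, so that it has no WT translation level. Among the 62 genes that reached the filter in WT cells, 10 were higher and 6 lower. Of the 7 effectors among these 16, named after their values were seen, 2 were higher, Samhd1 (0.84, an enzyme that degrades nucleotides) and Tap1 (2.08, a peptide transporter). The other 5 were lower, namely Ifitm1, Ifitm2 and Ifitm3 (-1.72, -1.01 and -0.94, membrane proteins that block viral entry), Xaf1 (-1.34) and B2m (-0.73, the light chain of MHC class I). The 3 Ifitm genes are near-identical in part, so their counts are uncertain.

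Markers of other cells were examined beside these lists. Of 6 blood and immune markers, Ptprc, Aif1, Tyrobp and Ms4a1 had 3 or fewer reads in every library, and the summed level of the list, chiefly from Cd68 and Cd3e, was 41.1 to 66.5 CPM in WT and 153 to 293 CPM in KO libraries. Of 6 fibroblast markers, Postn had at most 2 reads, and their sum was 8.46 to 14.1 CPM in WT and 2.24 to 32.3 CPM in KO libraries. The highest count in a KO library was 28 for Col3a1, 13 for Col1a2 and 37 for Acta2, against 3, 3 and 15 in WT. For Col1a1 and Thy1 it was 16 and 21 in KO libraries against 19 and 25 in WT. Of 5 primitive endoderm markers, Gata6 had at most 3 reads, with a sum of 3.31 to 10.8 CPM in WT and 1.94 to 8.61 CPM in KO libraries. The highest count for Gata4 and Pdgfra was 13 and 16 in KO libraries against 8 and 9 in WT. For Sox17 and Dab2 it was 1 and 6 in KO libraries against 8 and 12 in WT. The part of such cells in the results was not tested.

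**Figure D4:**
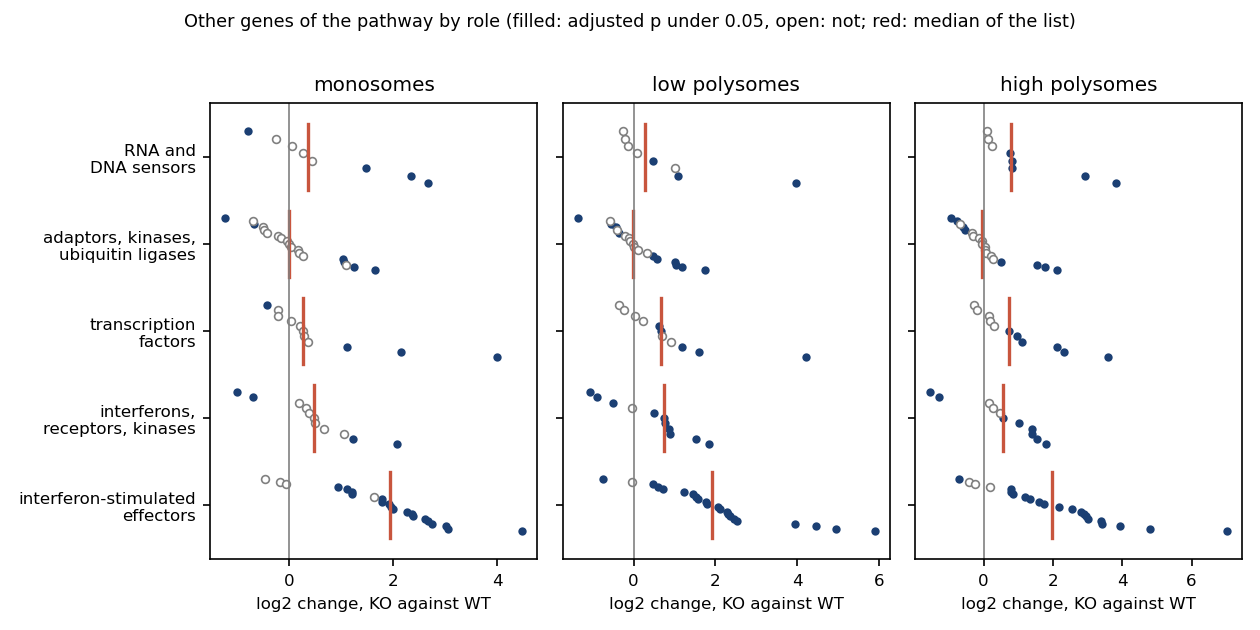
Log2 change of KO against WT (horizontal axis) of the 71 tested genes of the 5 role lists (rows) in the 3 fractions (panels, each with its own scale). Filled points passed at an adjusted p under 0.05, and red lines are medians of the list. Interferon-stimulated effectors lie furthest to the right, with medians of 1.94, 1.93 and 1.97 (1.5, 1.49 and 1.01 over the 14 that reached the filter in WT cells), and adaptors centre near 0.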

How the data were processed

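RNA of 18 gradient fractions was sequenced with QuantSeq, which reads 3′ ends. The deposited values are raw counts per gene. The authors trimmed reads with Cutadapt 1.14, aligned them to mm10 with STAR 2.5.3a, kept unique alignments and counted them on their strand with featureCounts 1.5.3 over GENCODE M14 without ribosomal RNA. No use of molecular identifiers is stated, so PCR copies count as reads. Reads shared with near-identical copies, such as other Ifitm, Oas or Gbp genes, were not counted for either, so these genes are uncertain.

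The 92 spike-in entries (at most 0.00215% of reads) were left out. Genes that reached 3 CPM in no fewer than 3 libraries were fitted with limma-voom (limma 3.58.1, edgeR 4.0.16, R 4.3.3) on TMM-scaled counts, with 1 mean for each group, as the study's methods name limma, the filter and the interaction term. Two-sided p-values were adjusted by Benjamini-Hochberg across the 12851 genes, and a gene passed at an adjusted p under 0.05. Adjusted p-values are limma's except where edgeR or DESeq2 is named. Ratios of single gradients use log2 CPM with a prior count of 2. A fold against a group with 3 counts or fewer in every library is a lower bound against that floor. Symbols, coordinates (GRCm38, 1-based) and 3′ UTRs come from GENCODE M21.

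Same-numbered fractions of 1 genotype deviated together weakly (r of 0.0317 to 0.135, and in 17 of 18 pairs the best match had the same number). Per the protocol each gradient was split into its fractions, so the number pairs these. Nothing pairs the genotypes. The fit was also run on simulated counts, but no result of that run is given here. Alternatives were DESeq2 1.42.0 size factors or total counts in limma-voom, no or a stricter filter, edgeR, DESeq2, leaving out each gradient, a replicate block, only the libraries compared, and an added fold threshold.

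The 9 genes and the role lists were chosen with earlier results of these data known. Named are the 9 genes, Dgcr8, the 3 genes most like Mavs and, per list, up to 4 genes that passed in the same direction in at least 2 fractions, by the size of their mean absolute log2 change. A gene that this rule would name is not reported here.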

Additional observations from a re-analysis of the deposited data

Results flagged for a closer look

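For some genes the effect of the fraction differed between the genotypes by a test of the interaction itself (limma-voom, adjusted over all genes tested). For Ddx58 the change in translation level was -1.66 (log2), with all 3 KO gradients below all 3 WT gradients. For Irf1 it was 0.75, with all 3 KO gradients above all 3 WT gradients. Among the role lists, where 28.2% of all genes tested passed, the change was 1.09 for Tmem173, 1.21 for Irf9, 1.55 for Irf2bp2 and -0.84 for Socs3. The call on Tmem173 was lost without WT replicate 1 (adjusted p = 0.0579), WT replicate 3 (0.111) or KO replicate 3 (0.0534). It was also lost with total counts (0.76, adjusted p = 0.106) and with no filter (0.0542). The call on Socs3 was lost without any 1 of the WT gradients (0.0569, 0.0913 and 0.138) or KO replicate 2 (0.248). It was also lost with no filter (0.105) and in DESeq2 (0.0507). Genes outside the naming rule, listed for this test alone, were Cgas (1.62), Dhx9 (0.52), Irf2bp1 (0.93), Ifnlr1 (0.92), Jak1 (1.0), Samhd1 (0.84) and Tap1 (2.08), which were higher, and Ifitm1 (-1.72), Ifitm2 (-1.01), Ifitm3 (-0.94), Xaf1 (-1.34) and B2m (-0.73), which were lower. The Dhx9 call was close to the threshold (adjusted p = 0.0481). No results under the alternatives are given for the genes outside the naming rule. For Psmb8 the fitted value was 2.54, but the WT monosome and high polysome libraries held no read of Psmb8, so that no WT translation level exists to compare and the value depends on the prior count. It did not pass in edgeR (adjusted p = 1) or DESeq2 (0.272).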

How the results depend on the processing

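Of 504 values of the tested members under the alternatives, 476 kept their direction and their side of the threshold, 16 no longer passed, 12 newly passed and 0 reversed. For the named genes of the role lists these counts were 1576, 56, 35 and 0 of 1667. Number of members passing: in KO monosomes 5 in place of 3 with total counts (Mavs and Eif2ak2 joining), 5 with no filter (Tlr3 and Eif2ak2 joining) and 5 with the replicate block of gradient numbers (Mavs at 0.47, adjusted p = 0.02, and Eif2ak2 at 1.15, adjusted p = 0.0442). In high polysomes 5 passed with no filter (Ifih1 and Tlr3 joining), and the replicate block gave Mavs 0.35 (adjusted p = 0.0393). Ifih1 and Tlr3 were near the floor, so their passes with no filter are not taken as calls. In 9 pairs of same-numbered libraries of the genotypes, r was 0.000175 to 0.102, and in 6 the best match had the same number. The block of fractions within a gradient changed no call on members' translation levels. Leaving out 1 gradient gave 2 to 4 members for the WT translation level (2 without WT replicate 1 or 3), 2 to 4 for the KO level (2 without KO replicate 3), and 11 to 17 genes of the role lists for its change (11 without WT replicate 1 or 3). An added fold threshold left 2 members for the WT level, 1 for the KO level and 1 for the change (Ddx58), and of the role lists 30 genes in low polysomes, 19 for the KO level and 10 for the change. Total counts left 1 member for the change (Ddx58), and no filter gave 31 genes of the role lists for the WT level. With no filter, 12937 of 25635 genes passed for the WT translation level, against 6944 of 12851. The cause of these shifts was not tested. Depth limits Ifih1, Tlr3 and Isg15 in all libraries and Ddx58 and Eif2ak2 in WT monosomes, where they held 10 reads or fewer.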
